A study of Mus musculus with 9 samples.

Results

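Upp2, Cyp26a1, Aqp8, Slc16a7, Arrdc3, Daam2 and Wee1 are described here across 9 mouse livers. They are 7 of the 16266 genes present in both deposited tables, and were chosen by their FPKM (fragments counted, scaled by gene length and sequencing depth), which was lower with ethanol and lower again with added Mettl3. The differences between groups that follow are therefore descriptions without a test. There were 3 groups of 3 livers. Mettl3 livers, labelled Mettl3 overexpression, came from wild-type mice given AAV8-TBG-Mettl3-3×FLAG-WPRE and ethanol. Ethanol-fed livers came from mice labelled WT that were given ethanol, and pair-fed livers from mice labelled WT on the control diet; the empty vector AAV8-TBG-MCS-3×FLAG-WPRE is taken to be theirs from the study's design, since no sample label names a virus. The TBG promoter directs a transgene to hepatocytes. Diets began 3 weeks after tail vein injection and ran for 10 days, ending with 1 binge of ethanol, or of maltose for the pair-fed mice. Age, sex and time of tissue collection are not given in the labels. No label says that replicates were separate animals, so any p measures only the spread between these libraries.

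Mettl3 is the catalytic subunit of the complex that writes N6-methyladenosine (m6A) on nascent mRNA, a mark that reader proteins link to mRNA decay, splicing and translation. The 7 genes do different work in the liver. Upp2 and Cyp26a1 encode enzymes that remove small molecules, uridine and retinoic acid. Aqp8 and Slc16a7 encode membrane channels and transporters, Arrdc3 and Daam2 encode signalling adaptors, and Wee1 encodes a kinase that holds back mitosis.

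Libraries held between 34656256 and 38159563 reads over the listed genes. Mettl3 was at 38.5, 25.0 and 33.3 FPKM in Mettl3 livers 1 to 3, against 5.44, 4.86 and 3.78 FPKM in ethanol-fed livers and 3.97, 3.10 and 3.38 FPKM in pair-fed livers. Every Mettl3 liver was above every other liver for that transcript. Of 8 hepatocyte markers, 7 were in both tables and 0 of these were at 0. Their summed FPKM was 54686 to 62389 in Mettl3 livers, 55872 to 68286 in ethanol-fed livers and 56276 to 63984 in pair-fed livers. Its parts moved: 2 of the 7 were called higher at the ethanol step, beside 10% of all genes. Fgb, a fibrinogen chain of the acute phase, was at 12017 to 16255 FPKM in Mettl3 livers, 5677 to 12384 FPKM in ethanol-fed livers and 3579 to 5249 FPKM in pair-fed livers. Alb, albumin, was at 30108 to 37317 FPKM in Mettl3 livers, 35145 to 47905 FPKM in ethanol-fed livers and 42143 to 45946 FPKM in pair-fed livers. The part of these shifts in the results was not tested. In bulk tissue, fewer cells of a type and less RNA per cell cannot be told apart. Ethanol-fed liver 1 was the highest of its group in 6 of the 7 genes, all but Upp2, and was lowest of its group in neutrophil markers, so values without it are given beside the results.

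Upp2 (Entrez 76654, chromosome 2, 58566317 to 58795846, GRCm38) encodes uridine phosphorylase 2, which splits uridine into uracil and ribose 1-phosphate. It was at 1.18, 0.965 and 2.41 FPKM in Mettl3 livers, 6.88, 2.29 and 6.91 FPKM in ethanol-fed livers and 20.2, 35.2 and 36.9 FPKM in pair-fed livers. Ethanol-fed liver 2 lay below Mettl3 liver 3, so these groups overlapped, while both lay below every pair-fed liver. The ethanol-fed mean was 17.4% of the pair-fed mean, and the Mettl3 mean was 28.3% of the ethanol-fed mean (15.0% and 33.0% without ethanol-fed liver 1). On log2(FPKM + 1), Mettl3 minus ethanol-fed livers was -1.27 (SE 0.49) and ethanol-fed minus pair-fed livers was -2.38 (SE 0.50).

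RefSeq lists several starts for some of these genes, and 5 of the 7 (Upp2, Cyp26a1, Aqp8, Arrdc3 and Daam2) have promoter entries on GRCm38.p6. The 250 bases before each of 9 listed starts were searched on both strands for 8 words that known regulators of these pathways bind. The words were CACGTG (E-box, clock proteins), TTANGTAA (D-box, PAR bZIP proteins), the retinoic acid response element in its AGTTCA and AGGTCA repeats with 5 bases between, GTAAACA (forkhead proteins), TGACGTCA (cyclic AMP response), CTTTGAT (TCF, the Wnt effector) and the palindromic glucocorticoid response element. Matches were found for 4 genes and did not overlap one another. A window of each is printed with the match in capitals, since it shows where the word stands; a match is a description of letters and not a measured binding site. The Upp2 window is that of the second of 2 starts, chr2:58754934-58755183, plus strand, with a TCF word that 3.21% of all 32851 windows hold.
Upp2: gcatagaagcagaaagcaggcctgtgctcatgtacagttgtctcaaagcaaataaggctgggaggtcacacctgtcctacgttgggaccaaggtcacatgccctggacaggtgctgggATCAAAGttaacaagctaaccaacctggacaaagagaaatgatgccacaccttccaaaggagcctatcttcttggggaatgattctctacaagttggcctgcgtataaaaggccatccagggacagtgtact

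Cyp26a1 (Entrez 13082, chromosome 19, 37697738 to 37701536) encodes the cytochrome P450 that hydroxylates all-trans retinoic acid for clearance, and is itself switched on by retinoic acid. It was at 0.274, 0.393 and 0.722 FPKM in Mettl3 livers, 2.87, 1.33 and 0.900 FPKM in ethanol-fed livers and 4.05, 2.89 and 5.46 FPKM in pair-fed livers. No 2 groups overlapped, but the gaps were narrow: the highest ethanol-fed liver had 2.87 and the lowest pair-fed liver 2.89 FPKM. The ethanol-fed mean was 41.1% of the pair-fed mean, and the Mettl3 mean was 27.2% of the ethanol-fed mean (41.4% without ethanol-fed liver 1). Without that liver the ethanol-fed mean was 27.0% of the pair-fed mean. Between 19 and 376 reads stood behind each value. Its promoter window, chr19:37697558-37697807, plus strand, held the paired retinoic acid word, read on the minus strand, 16 bases before the start of the listed transcript, which lies downstream of the gene's first base. Of all 32851 windows, 7 (0.0213%) held that word.
Cyp26a1: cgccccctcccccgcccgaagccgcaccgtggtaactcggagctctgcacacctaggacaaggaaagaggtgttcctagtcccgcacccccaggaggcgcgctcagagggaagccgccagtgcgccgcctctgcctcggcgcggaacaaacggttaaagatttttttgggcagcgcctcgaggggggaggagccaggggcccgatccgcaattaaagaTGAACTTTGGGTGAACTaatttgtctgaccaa

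Aqp8 (Entrez 11833, chromosome 7, 123462294 to 123468003) encodes a water channel that hepatocytes also use for ammonia and hydrogen peroxide. It was at 7.22, 8.13 and 9.86 FPKM in Mettl3 livers, 36.2, 20.2 and 18.0 FPKM in ethanol-fed livers and 45.5, 46.3 and 43.9 FPKM in pair-fed livers. The 3 groups did not overlap, and pair-fed livers were the tightest of all 7 genes, with a coefficient of variation of 2.70%. The Mettl3 mean was 33.9% of the ethanol-fed mean (44.0% without ethanol-fed liver 1). The ethanol-fed mean was 54.8% of the pair-fed mean (42.2% without ethanol-fed liver 1). Aqp8 had the largest share at the Mettl3 step among the 7 genes: 60.7% of the difference between Mettl3 and pair-fed livers on log2(FPKM + 1). Without ethanol-fed liver 1 its Mettl3 step was -1.10 and its ethanol step -1.20, which turned the order of the steps. Its window, chr7:123462044-123462293, plus strand, held an E-box 70 bases before the start, as did 6.02% of all windows.
Aqp8: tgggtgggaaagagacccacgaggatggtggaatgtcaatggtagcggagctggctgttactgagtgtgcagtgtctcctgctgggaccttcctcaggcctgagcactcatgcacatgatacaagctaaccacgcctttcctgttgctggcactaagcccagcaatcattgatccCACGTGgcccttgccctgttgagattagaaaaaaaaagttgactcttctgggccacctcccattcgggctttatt

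Slc16a7 (Entrez 20503, chromosome 10, 125219270 to 125389586) encodes MCT2, a proton-coupled carrier of pyruvate, lactate and ketone bodies. It was at 7.59, 6.36 and 7.53 FPKM in Mettl3 livers, 14.2, 9.80 and 11.7 FPKM in ethanol-fed livers and 15.6, 19.9 and 19.2 FPKM in pair-fed livers. The groups did not overlap, with the smallest relative steps of the 7 genes by mean FPKM. Its Mettl3 mean was 60.3% of the ethanol-fed mean, which in turn was 65.2% of the pair-fed mean (66.8% and 58.9% without ethanol-fed liver 1). Its lowest liver held 2891 reads, more than the lowest liver of any of the other genes.

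Arrdc3 (Entrez 105171, chromosome 13, 80883384 to 80896042) encodes an alpha-arrestin that brings NEDD4-type ubiquitin ligases to membrane receptors such as the beta-adrenergic receptor. It was at 3.38, 2.30 and 3.58 FPKM in Mettl3 livers, 16.6, 6.27 and 6.26 FPKM in ethanol-fed livers and 55.2, 45.5 and 57.2 FPKM in pair-fed livers. The groups did not overlap, and ethanol-fed liver 1 was far above the other ethanol-fed livers. The ethanol-fed mean was 18.5% of the pair-fed mean (11.9% without ethanol-fed liver 1). The Mettl3 mean was 31.8% of the ethanol-fed mean, or 49.2% without that liver, a change of more than 1.5 times. Between Mettl3 and pair-fed livers Arrdc3 had the largest difference of the 7 on log2(FPKM + 1), -3.72 (SE 0.18), close to Upp2 at -3.65 (SE 0.36). By mean FPKM the order was turned, with Mettl3 livers at 5.86% of pair-fed livers for Arrdc3 and 4.94% for Upp2.

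Daam2 (Entrez 76441, chromosome 17, 49456022 to 49564459) encodes a formin that nucleates actin and binds Dishevelled in Wnt signalling. It was the least abundant of the 7 genes, at 0.134, 0.128 and 0.211 FPKM in Mettl3 livers, 0.430, 0.384 and 0.305 FPKM in ethanol-fed livers and 0.684, 0.595 and 0.699 FPKM in pair-fed livers. The groups did not overlap at 39 to 213 reads per value. Its Mettl3 mean was 42.3% of the ethanol-fed mean and its ethanol-fed mean 56.6% of the pair-fed mean (45.8% and 52.2% without ethanol-fed liver 1). The log2(FPKM + 1) scale hides much of this in so low a gene: the differences were -0.25 (SE 0.05) at the Mettl3 step and -0.27 (SE 0.05) at the ethanol step. Both of its RefSeq starts had the same cyclic AMP word upstream, found in 1.55% of all windows, and the first is shown, chr17:49564338-49564587, minus strand.
Daam2: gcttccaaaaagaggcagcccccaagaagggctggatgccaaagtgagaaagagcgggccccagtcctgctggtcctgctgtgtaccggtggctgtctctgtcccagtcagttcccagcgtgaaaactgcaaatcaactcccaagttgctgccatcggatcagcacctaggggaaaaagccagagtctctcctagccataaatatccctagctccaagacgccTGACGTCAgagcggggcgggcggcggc

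Wee1 (Entrez 22390, chromosome 7, 110122059 to 110143299) encodes the kinase that keeps CDK1 inactive until the cell is ready to divide, and in mouse liver it is a known output of the circadian clock. It was at 0.289, 0.118 and 0.682 FPKM in Mettl3 livers, 3.23, 1.69 and 0.723 FPKM in ethanol-fed livers and 4.58, 5.67 and 5.02 FPKM in pair-fed livers. No groups overlapped, although Mettl3 liver 3 and ethanol-fed liver 3 differed by little, 89 reads against 92 reads. It was the most variable of the 7 in Mettl3 and ethanol-fed livers, with coefficients of variation of 79.7% in Mettl3 livers and 67.3% in ethanol-fed livers, against 10.8% in pair-fed livers. The Mettl3 mean was 19.3% of the ethanol-fed mean, or 30.1% without ethanol-fed liver 1 and 10.8% without Mettl3 liver 3, both more than 1.5 times apart from it. The ethanol-fed mean was 37.0% of the pair-fed mean (23.7% without ethanol-fed liver 1).

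**Figure D1:**
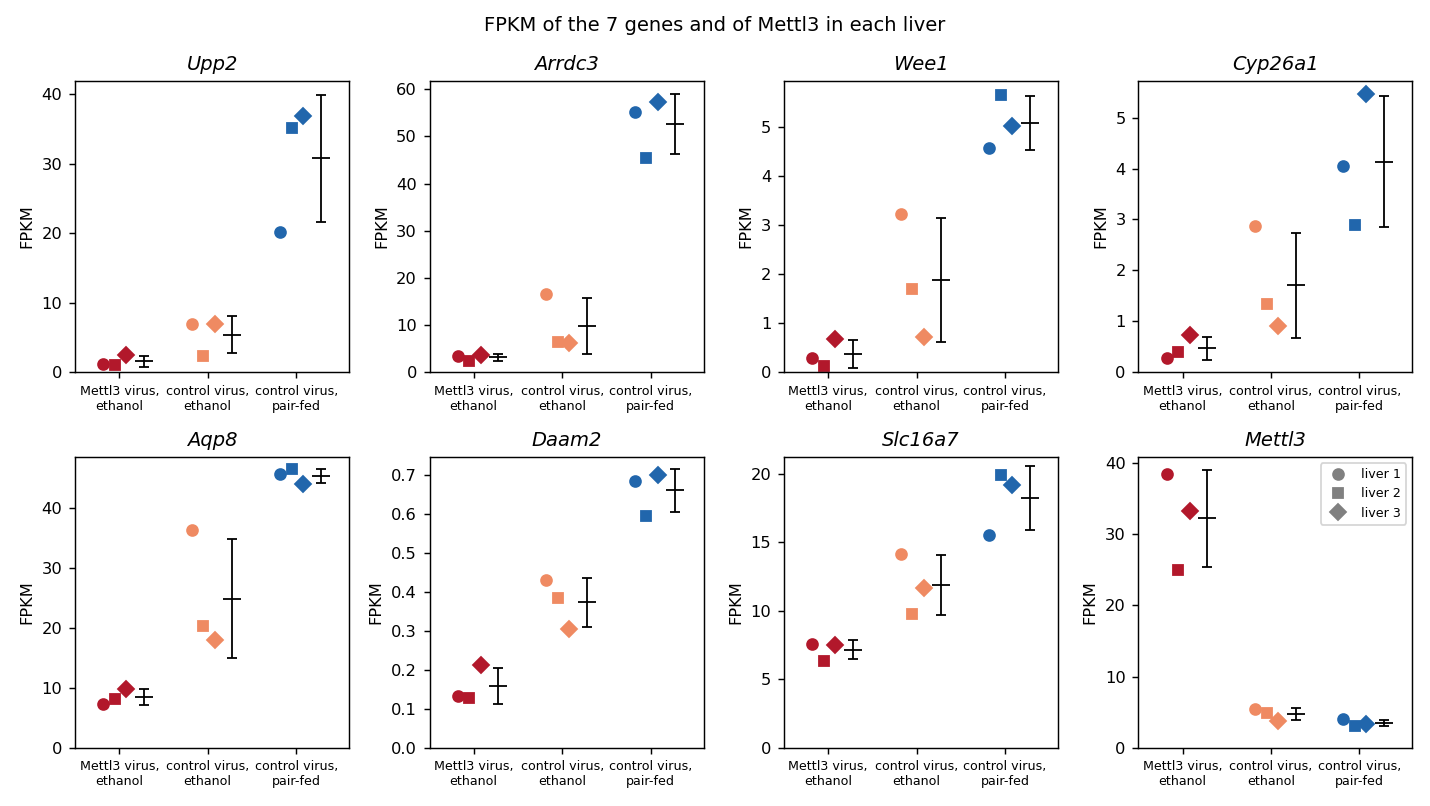
FPKM (vertical axes, each from 0) of the 7 genes and of Mettl3 in Mettl3, ethanol-fed and pair-fed livers, one symbol per liver, with the group mean and SD (n = 3) as a bar beside the symbols. Ethanol-fed liver 1 (circle) is the highest of its group for 6 of the 7 genes, and the Mettl3 and ethanol-fed groups overlap only for Upp2.

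Set side by side, the Mettl3 step made up 34.8% of the log2 difference between Mettl3 and pair-fed livers in Upp2 and 34.1% in Arrdc3. It made up between 46.2% and 52.6% in Wee1, Cyp26a1, Daam2 and Slc16a7, and 60.7% in Aqp8. The added 1 in log2(FPKM + 1) weighed on the shares of genes of low FPKM. With 0.1 added in its place the share was 56.3% in Wee1, 54.5% in Cyp26a1 and 56.1% in Daam2. It was then 39.5% in Upp2, 36.6% in Arrdc3, 53.3% in Slc16a7 and 61.4% in Aqp8. Single ethanol-fed libraries also moved the shares, given here with 1 added. Without ethanol-fed liver 1 the share was 31.2% in Wee1, 30.0% in Cyp26a1 and 22.7% in Arrdc3, without ethanol-fed liver 2 it was 46.3% in Upp2, and without ethanol-fed liver 3 it was 61.0% in Wee1. The standard errors of the steps also overlapped for Wee1, Cyp26a1, Aqp8, Daam2 and Slc16a7, and did not for Upp2 and Arrdc3. Both steps share the ethanol-fed livers, so a high or low ethanol-fed library moves them in opposite directions. Overlap of these standard errors is therefore no test of which step is larger, and no grouping of the genes by their steps was tested. Over both steps the Mettl3 mean was 4.94% of the pair-fed mean for Upp2, 5.86% for Arrdc3, 7.13% for Wee1, 11.2% for Cyp26a1, 18.6% for Aqp8, 23.9% for Daam2 and 39.3% for Slc16a7.

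**Figure D2:**
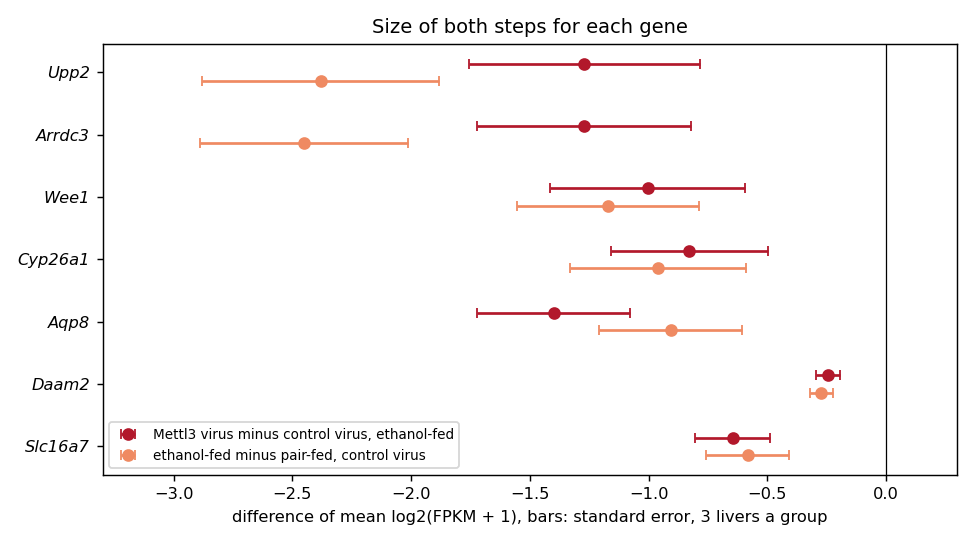
Difference of mean log2(FPKM + 1) (horizontal axis) for each gene, Mettl3 minus ethanol-fed livers above and ethanol-fed minus pair-fed livers below, with standard errors from 3 livers a group. Upp2 and Arrdc3 have the largest ethanol steps (-2.38 and -2.45) and Aqp8 has the largest Mettl3 step (-1.40) on this scale, which shrinks genes of low FPKM; with a pseudocount of 0.1 in place of 1, Wee1 (-2.07), Upp2 (-1.70) and Cyp26a1 (-1.60) exceed Aqp8 (-1.49).

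How common the pattern was can be read from all genes, without drawing support from it, since these contrasts chose the 7. Mean FPKM was stepwise lower over the 3 groups for 6383 of 16266 genes (39.2%), and 302 genes (1.86%) had no overlap at both steps, 6 of the 7 genes among them. For Mettl3 against ethanol-fed livers 6 of the 7 were lower without overlap, beside 7.81% of all genes. For ethanol-fed against pair-fed livers 7 of 7 were, beside 30.1% of all genes (6 of 7 with median-ratio scaling, where Cyp26a1 overlapped), and for Mettl3 against pair-fed livers 7 of 7 were, beside 38.3% of all genes. In the authors' deposited table for Mettl3 against control all 7 had a q under 0.05 with a lower level, beside 0.51% of its genes, and in the authors' deposited table for ethanol-fed against pair-fed livers all 7 did, beside 12.6% of its genes. Just 9 genes met that mark in both of the authors' deposited tables. The other 2, singled out after their values were seen, were Esrrg, an orphan nuclear receptor, and Sult1c2, a sulfotransferase. Esrrg averaged 0.0772 ± 0.0299 FPKM in Mettl3 livers, 0.295 ± 0.119 FPKM in ethanol-fed livers and 0.579 ± 0.0832 FPKM in pair-fed livers (SD, n = 3 each). Sult1c2 averaged 2.24 ± 0.849 FPKM in Mettl3 livers, 5.73 ± 2.50 FPKM in ethanol-fed livers and 10.8 ± 1.38 FPKM in pair-fed livers (SD, n = 3 each).

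Tests of other genes used limma on log2(FPKM + 1) where 3 or more libraries reached an FPKM of 1. Of the 7 genes, 4 passed that filter for Mettl3 against ethanol-fed livers (Upp2, Arrdc3, Aqp8 and Slc16a7) and 6, all but Daam2, for ethanol-fed against pair-fed livers. Wee1 and Cyp26a1 passed there through the pair-fed livers, where they were high, and the calls of the 7 are not given because the same contrasts chose them. Over all genes, limma called 0.0103% between Mettl3 and ethanol-fed livers, which is Mettl3 itself.

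Since Mettl3 writes m6A, the reference transcripts of the 7 genes were searched for GGACT, the most common spelling of the m6A consensus. All 7 GENCODE M21 principal transcripts held the word at least once, as did 91.8% of 9621 tested genes. Their median density was 0.823 per kb, below the 1.05 per kb of the tested genes. Arrdc3 had 1 word in 4101 bases, a density above 9.02% of tested genes, and Aqp8 was the densest at 1.38 per kb, above 68.7%. Within 200 bases of the stop codon, where m6A is known to gather, 4 of the 7 had the word (Upp2, Cyp26a1, Aqp8 and Daam2), beside 40.0% of tested genes. Each gene was searched in a single annotated transcript, while FPKM was given per gene. The reads and FPKM of Upp2 and Daam2 correspond to gene lengths well above those of the transcripts searched. Words elsewhere in these genes were therefore not counted. Methylation was not measured, so a word is no evidence of a mark. The copy nearest the stop codon is shown for each gene in 21 bases of the transcript, 5′ to 3′, with the word in capitals; in Upp2, Aqp8 and Slc16a7 it lies in the coding sequence, and in the other 4 in the 3′ UTR.
Upp2: aacagcttGGACTttgtgacc
Cyp26a1: caattcttGGACTtatttgaa
Aqp8: tctttgtaGGACTgctcatta
Slc16a7: gtgctgtgGGACTcacaacaa
Arrdc3: tgtagcctGGACTctacctgc
Daam2: gagactggGGACTaaccacag
Wee1: tctagaaaGGACTcaagggct

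The transcripts were otherwise unlike. Slc16a7 was the longest at 10981 bases, of which 8742 were 3′ UTR, a longer 3′ UTR than in 99.6% of tested genes. The Daam2 transcript searched had 99 bases of 3′ UTR, longer than in 4.78% of tested genes. Which transcripts of each gene these livers made was not measured. The promoter windows ranged in GC content from 49.2% before the second Upp2 start to 76% before 1 of the Arrdc3 starts.

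Variation within groups was not used to choose the genes. With group means removed, Pearson's r between pairs over 9 livers was above 0 in 21 of 21 pairs, with a median of 0.69 and a range of 0.09 to 0.89. The points share library, depth and dissection, and most transcripts moved in the same way: the median r of the 7 with each of 10223 tested genes was 0.37, and 70.8% of those r were above 0. Ethanol-fed liver 1 weighed on this value. It was the highest of its group in 6 of 7 genes, and without it the median r was 0.20, with 15 of 21 pairs above 0, no higher than the median of 0.20 with the other tested genes without that liver (62.3% above 0). Among Mettl3 livers, liver 3 was the highest in 6 of 7 genes and liver 2 the lowest in 5. Mettl3 itself was highest in liver 1. Upp2 went with Slc16a7 (r = 0.84) more than with Daam2 (0.09), while Cyp26a1 went with Daam2 and Wee1 with Aqp8 (0.89 each).

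**Figure D3:**
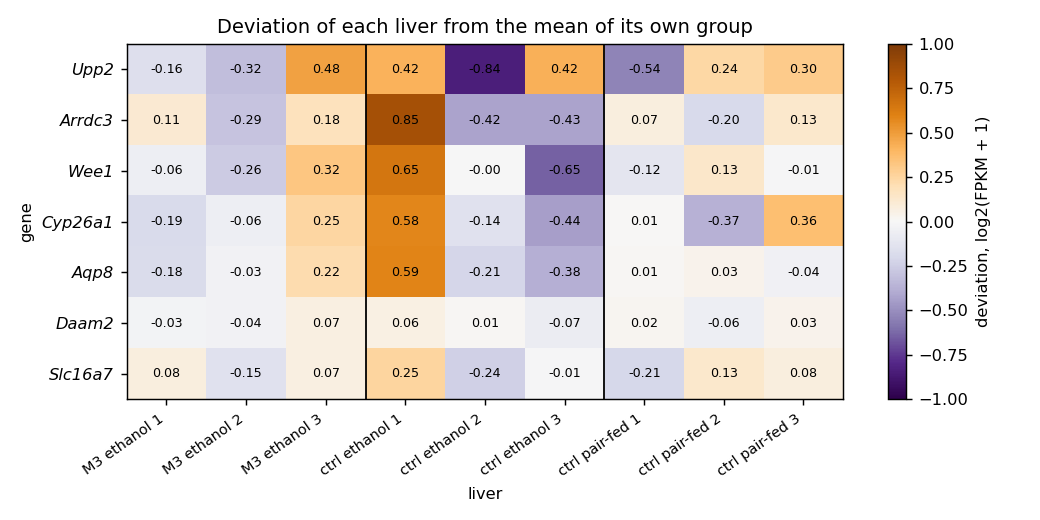
Deviation of each liver (columns) from the mean of its own group on log2(FPKM + 1) for the 7 genes (rows), printed in each cell and coloured from -1 to 1. Ethanol-fed liver 1 is above its group mean in all 7 genes (0.06 to 0.85), and Mettl3 liver 3 is above its own in all 7 (0.07 to 0.48).

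The genes most like them in profile were ranked by Pearson's r on log2(FPKM + 1) over the 9 livers, among 9814 genes with predicted ones left out. Such values describe a shared profile over 3 groups and carry no test. Closest to the averaged profile of the 7 was Gabarapl1 (r = 0.99), an autophagosome protein, at 48.7 ± 12.4 FPKM in Mettl3 livers, 99.9 ± 39.2 FPKM in ethanol-fed livers and 226 ± 43.2 FPKM in pair-fed livers (SD, n = 3 each). Ppp4r3a, Sned1, B2m and Cdt1 followed, each at r = 0.99. B2m, the light chain of MHC class I, averaged 1402 ± 85.0 FPKM in Mettl3 livers, 1688 ± 219 FPKM in ethanol-fed livers and 2195 ± 120 FPKM in pair-fed livers (SD, n = 3 each). For single genes the 2 closest were Chpt1 and Casp6 for Upp2, Sts and Sirt2 for Cyp26a1, Sult1c2 and Dapk2 for Aqp8, and Tlcd4 and Wdfy3 for Slc16a7. They were Sned1 and Acap1 for Arrdc3, Ppp4r3a and Reep4 for Daam2, and Gbp9 and Patz1 for Wee1. These r lay between 0.982 and 0.997.

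Relatives and pathway partners of the 7 genes were listed by function, with earlier results of these data known, and took no part in choosing the 7. The 8 lists held 182 genes. Between Mettl3 and ethanol-fed livers 114 were tested, and limma and limma-voom each called 0. Of these 114, 16 had an unadjusted limma p under 0.05, beside 723 of 9706 genes tested in all (7.45%). Their median log2 difference was -0.16, beside -0.04 over all genes. At the ethanol step 123 were tested, of which 46 fell (37.4%, beside 26% of all genes) and 10 rose (8.13%, beside 10% of all genes). With median-ratio scaling 38 of them were lower and 19 higher, beside 1663 lower and 1796 higher of all genes. Leaving out pair-fed liver 2 or pair-fed liver 3 reduced the lower calls to 28 each. Leaving out ethanol-fed liver 2, pair-fed liver 2 or pair-fed liver 3 left 5, 5 and 4 higher calls.

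Of 24 tested pyrimidine salvage and breakdown genes around Upp2, 7 fell with ethanol, 2 rose and 15 were not called, with a median log2 difference of -0.23 beside -0.14 over all genes. Scaling by median ratios gave 7 and 4. Without single libraries the lower calls were 5 to 11 and the higher calls 0 to 2, with the 11 without ethanol-fed liver 1. Of the enzymes that break uracil down in turn, the first, Dpyd, was not called, at 83.2 ± 5.60 FPKM in ethanol-fed livers and 97.1 ± 11.3 FPKM in pair-fed livers (limma adjusted p = 0.170), and was named after its values were seen. Dpys, dihydropyrimidinase, which acts next, fell and was at 33.8 ± 2.99 FPKM in ethanol-fed livers and 102 ± 7.11 FPKM in pair-fed livers (log2 difference -1.57, SE 0.10, limma adjusted p = 0.000424). Upb1, the last enzyme of that path, fell too and was at 47.0 ± 3.21 FPKM in ethanol-fed livers and 78.6 ± 3.92 FPKM in pair-fed livers (-0.73, SE 0.09). Tk1, which phosphorylates thymidine, fell by 2.38 on the log2 scale. The paralog Upp1, named outside the rule for its kinship, averaged 1.17 ± 0.0206 FPKM in Mettl3 livers, 1.24 ± 0.279 FPKM in ethanol-fed livers and 1.06 ± 0.322 FPKM in pair-fed livers (SD, n = 3 each). In the Mettl3 comparison the smallest p of the list was that of Nt5c2, a nucleotidase, at 3.00 ± 0.117 FPKM in Mettl3 livers and 4.22 ± 0.248 FPKM in ethanol-fed livers (limma adjusted p = 0.641). Nt5c2 was at 3.43 ± 0.156 FPKM in pair-fed livers, below its ethanol-fed mean.

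Retinoid genes around Cyp26a1 had 27 members tested at the ethanol step, of which 13 fell, 3 rose and 11 were not called, at a median log2 difference of -0.50. Median-ratio scaling gave 9 lower and 3 higher, and leaving out ethanol-fed liver 1 gave 20 and 3 of 25 tested. Dhrs3, a retinaldehyde reductase that retinoic acid induces, was at 5.40 ± 1.90 FPKM in ethanol-fed livers and 18.7 ± 0.816 FPKM in pair-fed livers (log2 difference -1.66, SE 0.19, limma adjusted p = 0.00177). Rara, a retinoic acid receptor, was at 1.94 ± 0.169 FPKM in ethanol-fed livers and 3.47 ± 0.245 FPKM in pair-fed livers (-0.60, SE 0.10). Bco1, which cleaves beta-carotene to retinaldehyde, rose to 5.89 ± 1.21 FPKM in ethanol-fed livers, against 2.42 ± 0.362 FPKM in pair-fed livers (limma adjusted p = 0.00417). In the Mettl3 comparison the retinol dehydrogenase Rdh16 had the smallest p of this list, with 22.8 ± 3.45 FPKM in Mettl3 livers and 36.4 ± 3.77 FPKM in ethanol-fed livers (limma adjusted p = 0.606). Cyp26b1, the paralog of Cyp26a1 and named outside the rule for that, averaged 1.49 ± 0.603 FPKM in Mettl3 livers, 1.07 ± 0.141 FPKM in ethanol-fed livers and 0.886 ± 0.259 FPKM in pair-fed livers.

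Among channels and transporters, 3 of 11 aquaporins were tested, and 2 fell at the ethanol step, or 1 without ethanol-fed liver 3, pair-fed liver 2 or pair-fed liver 3. The glycerol channel Aqp9 was at 78.0 ± 16.4 FPKM in ethanol-fed livers and 149 ± 8.30 FPKM in pair-fed livers (log2 difference -0.94, SE 0.16), and Aqp11 fell by 0.84 on the log2 scale. Aqp1, the water channel of endothelium and bile duct, was at 59.6 ± 5.74 FPKM in ethanol-fed livers and 52.4 ± 5.72 FPKM in pair-fed livers, and was called higher under median-ratio scaling but not on FPKM as deposited. Of 11 genes tested around Slc16a7, 4 fell, 1 rose and 6 were not called, and under median-ratio scaling 3 fell and 4 rose. Lower calls were 2 without ethanol-fed liver 2 and 1 without any 1 of the pair-fed livers, and higher calls were 3 without ethanol-fed liver 3. Slc16a6 rose, to 6.80 ± 1.34 FPKM in ethanol-fed livers against 1.17 ± 0.192 FPKM in pair-fed livers (1.84, SE 0.15, limma adjusted p = 0.000648). Slc16a1, the general lactate carrier MCT1, was at 17.2 ± 2.54 FPKM in ethanol-fed livers and 13.1 ± 0.795 FPKM in pair-fed livers (limma adjusted p = 0.0598). Like Aqp1, it was called higher under median-ratio scaling but not on FPKM as deposited.

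Around Arrdc3, 13 arrestin and ubiquitin ligase genes were tested at the ethanol step, of which 2 fell, 2 rose and 9 were not called, and 1 fell and 2 rose under median-ratio scaling. Lower calls numbered 4 without ethanol-fed liver 1 and 0 without pair-fed liver 1, 2 or 3, and higher calls 0 to 2 without single libraries. Arrdc4, an alpha-arrestin, rose and was at 9.31 ± 1.78 FPKM in ethanol-fed livers and 5.41 ± 0.327 FPKM in pair-fed livers (log2 difference 0.67, SE 0.14, limma adjusted p = 0.0105). Txnip, an alpha-arrestin that limits glucose uptake, had the smallest p of this list at the Mettl3 step. It averaged 21.1 ± 3.08 FPKM in Mettl3 livers, 57.0 ± 24.5 FPKM in ethanol-fed livers and 86.9 ± 39.6 FPKM in pair-fed livers (SD, n = 3 each). The Mettl3 and ethanol-fed livers did not overlap, and limma's adjusted p was 0.569.

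Formin and Wnt genes around Daam2 had 21 members tested at the ethanol step, of which 9 fell, 0 rose and 12 were not called, at a median of -0.33; median-ratio scaling gave 7 lower and 2 higher, and leaving out any 1 pair-fed liver left 6 lower. The paralog Daam1 was at 4.22 ± 0.974 FPKM in ethanol-fed livers and 8.65 ± 1.10 FPKM in pair-fed livers (log2 difference -0.90, SE 0.15, limma adjusted p = 0.00578). Rnf43 and Znrf3, Wnt-induced ligases that remove Wnt receptors, fell by 1.25 and 0.80 on the log2 scale. In the Mettl3 comparison Daam1, with the smallest p of the list, was at 2.96 ± 0.877 FPKM in Mettl3 livers and 4.22 ± 0.974 FPKM in ethanol-fed livers (limma adjusted p = 0.641).

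Wee1 was set among 2 lists. Of 19 mitotic entry genes 7 were expressed enough to test, and at the ethanol step 2 fell, Cdk2 and Atm, 1 rose, Cdkn1a, and 4 were not called. Cdk2 was at 2.78 ± 0.283 FPKM in ethanol-fed livers and 6.49 ± 0.264 FPKM in pair-fed livers (log2 difference -0.99, SE 0.10, limma adjusted p = 0.00110). Of 17 clock genes tested at that step, 7 fell (Cry2, Nr1d1, Nr1d2, Dbp, Tef, Hlf and Usp2), 1 rose (Per2) and 9 were not called. Their median log2 difference was -0.16, beside -0.14 over all genes. Median-ratio scaling gave 7 lower and 2 higher. There were 3 lower without pair-fed liver 2 or pair-fed liver 3, and 0 to 3 higher without single libraries. Bhlhe40, a repressor of E-box genes, had the smallest p of the clock list in the Mettl3 comparison, with 25.9 ± 6.42 FPKM in Mettl3 livers and 59.3 ± 8.22 FPKM in ethanol-fed livers (limma adjusted p = 0.453). Ciart, another clock repressor, was at 2.72 ± 0.377 FPKM in Mettl3 livers and 4.87 ± 1.76 FPKM in ethanol-fed livers (limma adjusted p = 0.641). In pair-fed livers Bhlhe40 was at 45.7 ± 5.27 FPKM and Ciart at 3.03 ± 0.914 FPKM, both below their ethanol-fed means. Neither was called at the ethanol step on FPKM as deposited, and Bhlhe40 was called higher under median-ratio scaling.

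**Figure D4:**
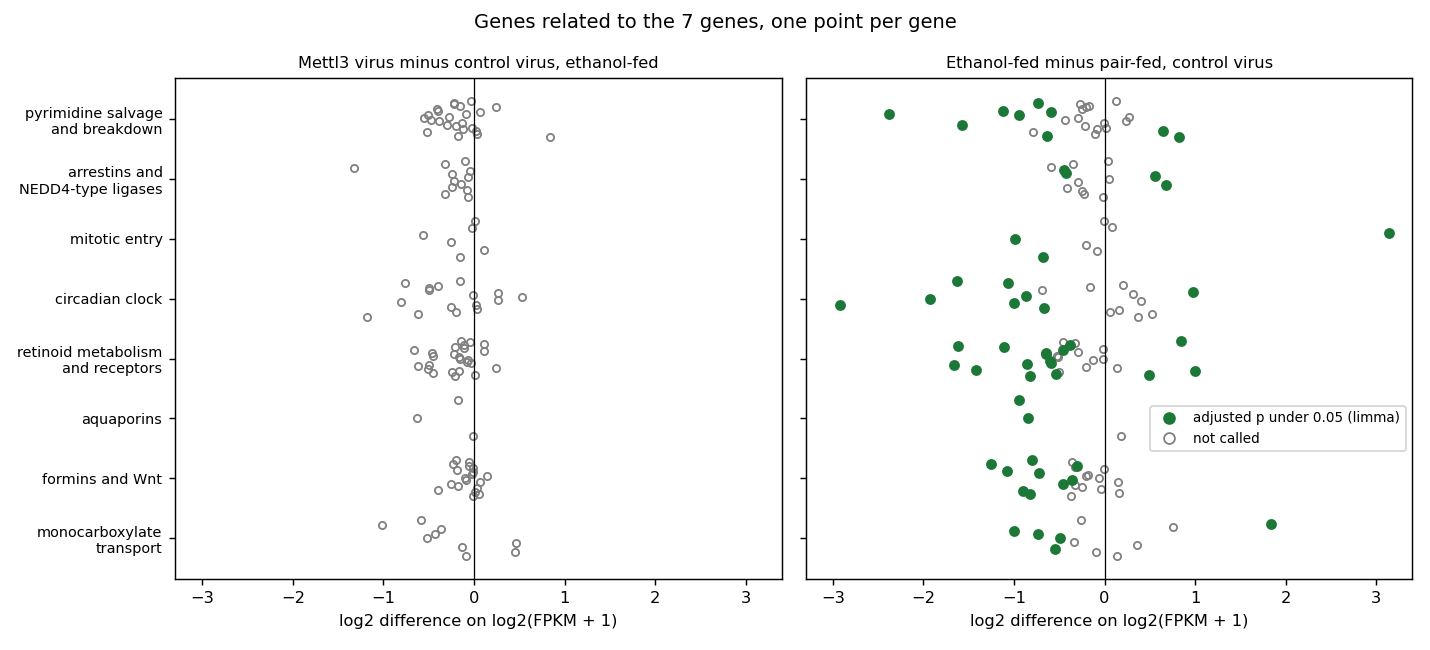
Log2 difference on log2(FPKM + 1) (horizontal axes) of each tested gene in the 8 lists (rows), Mettl3 minus ethanol-fed livers on the left and ethanol-fed minus pair-fed livers on the right, with filled points for limma calls. The left panel holds 0 calls of 114 genes, and the right panel 46 lower and 10 higher calls of 123 genes; Cdkn1a is the point furthest right at 3.14.

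Markers of other cells and of pericentral hepatocytes were summed too. Sums of stellate cell and cholangiocyte markers overlapped over the 3 groups. The summed FPKM of 5 neutrophil markers was 47.5 to 104 in Mettl3 livers, 8.61 to 72.2 in ethanol-fed livers and 6.43 to 10.6 in pair-fed livers, with ethanol-fed liver 1 the lowest of its group. Of 3 tested neutrophil markers 1 was called higher at the ethanol step. Over all genes tested at the ethanol step 26% were lower and 10% higher. The marker calls are on FPKM as deposited, where 2616 genes were lower, against 1663 with median-ratio scaling. Of 8 Kupffer cell markers 7 were lower at the ethanol step, and their sum was 98.0 to 190 in Mettl3 livers, 118 to 177 in ethanol-fed livers and 224 to 256 in pair-fed livers. Of 10 pericentral hepatocyte markers 7 were lower at that step, and their sum was 2056 to 2872 in Mettl3 livers, 2449 to 2703 in ethanol-fed livers and 6025 to 7410 in pair-fed livers. Cyp2e1 was the largest part of that sum. It was at 965 to 1551 FPKM in Mettl3 livers, 1235 to 1487 FPKM in ethanol-fed livers and 4320 to 5423 FPKM in pair-fed livers. Of 8 stellate cell markers 3 were lower, with sums of 131 to 148 in Mettl3 livers, 124 to 149 in ethanol-fed livers and 142 to 166 in pair-fed livers. Of 8 sinusoidal endothelial markers 6 were lower and 1 higher, with sums of 111 to 133 in Mettl3 livers, 102 to 115 in ethanol-fed livers and 139 to 159 in pair-fed livers. Of 4 tested cholangiocyte markers 1 was higher at the ethanol step. Cholangiocyte markers summed to 24.9 to 46.9, 24.2 to 38.9 and 28.4 to 41.3 FPKM in Mettl3, ethanol-fed and pair-fed livers. Lymphocyte markers summed to 1.05 to 1.99, 1.10 to 1.68 and 3.60 to 4.33 FPKM in these groups. Between Mettl3 and ethanol-fed livers 0 markers of any list were called by limma. None of the markers present in both tables was at 0 in all 9 livers, and the part of these cells in the 7 genes' levels was not tested.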

How the data were processed

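The submitters' processing notes name fastp, HISAT2, HTSeq and mm10; versions and the strand setting are not given in the sources used here. Per the file headers, the authors deposited FPKM for each library and, from DESeq2, group means of normalised counts (signal), linear fold (ratio), log2 fold, p-value and q-value. The tables held 16842 and 16470 genes and were joined on gene symbol; the ethanol-fed columns stand in both and differed by a relative 1.08e-06 at most. FPKM and the deposited group means gave whole reads for 100% of values within 0.05. Group tests were limma 3.58.1 in R 4.3.3 (trend, robust) on log2(FPKM + 1), on 6 libraries per step and 9 for Mettl3 minus pair-fed livers, for genes that reached an FPKM of 1 in 3 or more of them, Benjamini-Hochberg adjustment over all genes and a threshold of 0.05. SE of the 7 genes comes from the spread of each pair of groups, and of other genes from limma. The fits were also run on simulated counts with the same spread setting for every gene. That run does not measure how they perform at the spread of these livers. The 7 genes, the gene lists and the markers were chosen with earlier results of these data known. Named relatives are called genes and up to 4 others per list with the smallest p, with exceptions marked; the nearest profiles are 2 per gene and 5 for the mean. Alternatives were a pseudocount of 0.1, median-ratio scaling, no filter, a replicate block, limma-voom, a fit of 9 libraries and leaving out each library. Python 3.11.15 with pandas 2.3.3 prepared tables and sequences.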

Additional observations from a re-analysis of the deposited data

How the results depend on the processing

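All 7 genes kept a lower mean at both steps under median-ratio scaling and without any single library, and no difference changed sign. These columns chose the 7, so this is a description and adds no support. Groups without overlap cannot change order or come to overlap when a library is left out. With a pseudocount of 0.1 the log2 difference at the Mettl3 step was -2.07 for Wee1, -1.60 for Cyp26a1 and -0.88 for Daam2, and Daam2 was at -0.69 at the ethanol step. Genes without overlap numbered 6 to 7 at the Mettl3 step and 7 at the ethanol step when single libraries were left out, and 6 at each step under median-ratio scaling. At the Mettl3 step the count of called genes, 1 in the reported fit, was 0 with no filter, 0 with the replicate number as a block, 3 in a fit of 9 libraries and 0 to 2 without single libraries; related genes stayed at 0 without single libraries. At the ethanol step 1538 to 4743 genes were called without single libraries (3625 in the reported fit; 2392 without ethanol-fed liver 2 and 2157, 1538 and 1541 without pair-fed livers 1, 2 and 3), and among related genes 28 to 63 were lower and 4 to 12 higher. Median-ratio scaling gave 19 related genes higher in place of 10 at the ethanol step, and 18 in place of 9 for Mettl3 minus pair-fed livers. It gave 1796 genes higher and 1663 lower at the ethanol step, in place of 1009 and 2616, with the median of all genes at 0.01 in place of -0.14. No pairing of the livers by replicate number was seen. Same-numbered livers correlated at -0.412 to 0.394 over genes once group means were removed, and not every liver correlated best with its own number. With 3 livers a group these values cannot exclude a pairing. The block gave 2778 calls at the ethanol step. Depth limits Wee1 and Cyp26a1 most, at 15 and 19 reads in their lowest livers.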
